A study of Mus musculus with 10 samples.

Results

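The 5 libraries described here are the wild-type (WT) ATAC-seq libraries of mouse colon organoids, 2 grown in WENR medium and 3 taken 4 days after a change to ENR medium (d4 ENR), out of 10 libraries in the series. They were chosen by their genotype and medium labels alone. The other 5 libraries came from AHR KO organoids, which lack the aryl hydrocarbon receptor (AHR) in the gut epithelium. By the study's methods, the organoids were grown from colonic crypts of C57BL/6 mice, the WT mice being littermates of Ahr fl/fl mice in which Vil-Cre, driven by the epithelial villin promoter, deletes the receptor gene. The medium named ENR holds EGF, Noggin and R-spondin1, and WENR adds Wnt3a conditioned medium together with nicotinamide, the p38 inhibitor SB202190 and the ALK5 inhibitor A83-01. The change of medium therefore removed several components at once, and their parts cannot be told apart. In both media 50000 live cells were sorted for each library. Nothing in the labels says that libraries of a group came from separate animals, so the p-values below measure the spread between these libraries.

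ATAC-seq inserts sequencing adapters with a transposase wherever DNA is accessible, and accessible stretches appear as peaks of fragment coverage at promoters and at enhancers. Wnt ligands act through beta-catenin and TCF/LEF factors to keep crypt cells proliferating, and in a damaged or freshly plated colon epithelium the co-activator YAP, through TEAD and AP-1 factors, opens enhancers of a fetal-like repair program. When Wnt3a is withdrawn, organoid cells leave this state and mature, and HNF4 and CDX factors maintain the genes of absorptive colonocytes.

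Peaks of the 5 libraries were merged into 76116 regions when they overlapped by 1 bp or more. A region with a peak in both WENR and in no d4 ENR library was taken as closed, and one with a peak in all 3 d4 ENR and in no WENR library as opened. Closing far outnumbered opening, with 11126 closed and 492 opened regions, 14.6% and 0.646% of all regions. Another 29013 regions (38.1%) were shared by all 5 libraries, and 35485 were called in other combinations. A library without a peak in a region is one in which the caller's threshold was not passed there, which is not the same as no accessibility. The 4 sequences here, taken from the forward strand of GRCm38.p6, show the middle 300 bp of regions that stand for these classes. Outside promoters, the first and second are the closed regions of highest pileup with an AP-1 match and the third is that with a TEAD match, while the fourth is the opened region with the highest pileup that lies outside promoters, holds an HNF4 match and occurs once in the genome by its middle 50 bp. Capitals mark the motif matches.

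Closed, AP-1 match, intron of *Irf2bp2*, chr8:126591893-126592192: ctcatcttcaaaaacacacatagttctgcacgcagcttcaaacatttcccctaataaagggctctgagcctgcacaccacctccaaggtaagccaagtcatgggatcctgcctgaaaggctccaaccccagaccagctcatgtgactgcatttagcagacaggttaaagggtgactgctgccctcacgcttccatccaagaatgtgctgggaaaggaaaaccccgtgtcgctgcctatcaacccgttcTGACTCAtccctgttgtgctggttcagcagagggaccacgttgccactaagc

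Closed, AP-1 match, intergenic near *Fkbp1a*, chr2:151540418-151540717: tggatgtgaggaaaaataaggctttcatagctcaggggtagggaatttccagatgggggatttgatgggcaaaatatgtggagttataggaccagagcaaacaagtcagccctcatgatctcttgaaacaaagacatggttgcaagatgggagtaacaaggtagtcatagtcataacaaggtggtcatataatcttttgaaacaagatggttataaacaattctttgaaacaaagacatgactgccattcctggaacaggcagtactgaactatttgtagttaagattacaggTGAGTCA

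Closed, TEAD match, intron of *Iffo2*, chr4:139576936-139577235: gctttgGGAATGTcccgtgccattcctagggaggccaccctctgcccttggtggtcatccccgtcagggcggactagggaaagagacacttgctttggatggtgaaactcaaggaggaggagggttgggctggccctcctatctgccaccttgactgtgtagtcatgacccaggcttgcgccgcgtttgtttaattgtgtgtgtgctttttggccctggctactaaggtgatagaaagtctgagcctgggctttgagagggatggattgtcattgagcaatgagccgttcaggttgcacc

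Opened, HNF4 match and GATA match, intron of *Lipn*, chr19:34074279-34074578: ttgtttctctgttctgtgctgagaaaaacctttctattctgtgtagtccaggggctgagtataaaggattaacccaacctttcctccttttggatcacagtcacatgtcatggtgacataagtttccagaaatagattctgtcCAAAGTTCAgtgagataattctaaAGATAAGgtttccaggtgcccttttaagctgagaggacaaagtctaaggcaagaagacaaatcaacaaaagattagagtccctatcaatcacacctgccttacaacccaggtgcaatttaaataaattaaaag

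Values are listed in the order of the replicate numbers throughout. The region in *Irf2bp2*, a gene for a transcriptional co-repressor, had 5.50 and 5.58 FPM in WENR (fragments of pileup for each 1000000 fragments of the library) and no peak in d4 ENR. Near *Fkbp1a*, which encodes a small immunophilin, the pileup was 5.29 and 5.60 FPM in WENR, and in *Iffo2* it was 4.78 and 5.17 FPM. The region in *Lipn*, a gene of the acid lipase family, went the other way, with no peak in WENR and 0.728, 0.799 and 0.905 FPM in d4 ENR. The opened region was thus several times weaker where it was present than these 3 closed regions were. The classes as a whole were closer, with a median of 0.544 FPM in WENR for closed and 0.477 FPM in d4 ENR for opened regions.

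The labelled tissue was checked against markers. All 11 epithelial markers, among them *Epcam*, *Cdh1* and *Krt8*, had peaks in all 5 libraries, and their summed signal was between 64.6 and 422 (the unit is given with the gene values further on). For fibroblasts, 2 of 8 markers had peaks in all 5 libraries, with *Col1a2*, *Dcn* and *Lum* at 0 everywhere and a summed signal of 0.745 to 7.63. For immune cells it was 3 of 9 markers, with *Cd3e* and *Cd8a* among those at 0 and a summed signal of 2.83 to 16.5. For endothelium it was 2 of 6 markers, with *Tie1* at 0 and 2.39 to 22.1, and for muscle and nerve 2 of 8 markers, with *Sox10* among those at 0 and 0.211 to 6.86. The summed signal of every one of these lists was lower in each d4 ENR than in each WENR library. Relative to the median gene of each library, the scale used for genes further on, all 11 epithelial markers lay below that gene (median −0.21). *Epcam* (−0.81), *Cdh1* (−0.89) and *Krt18* (−1.15) passed as lower there and none as higher (limma, adjusted p under 0.05). In the immune and endothelial lists *Itgam* (1.56) and *Tek* (1.39) passed as higher and none as lower. No marker passed without d4 ENR replicate 2.

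Peaks were fewer, narrower and lower in d4 ENR than in WENR. Between 30.4 M and 47.9 M fragments lay behind each list, with more in WENR. Peaks covered 61.8 and 62.8 Mb of the genome in WENR and 26.2, 32.1 and 41.0 Mb in d4 ENR, 1.88-fold less on average. Over the shared regions, the median pileup was 2.62 and 2.73 FPM in WENR and 0.681, 0.941 and 1.15 in d4 ENR, a 2.89-fold difference. The median width covered by peaks in these same regions was 1178.5 ± 9.19 bp (SD, n = 2) in WENR and 838 ± 87.7 bp (SD, n = 3) in d4 ENR. None of these measures overlapped between the media, and each reached p = 0.2 in a 2-sided exact permutation test, the smallest p that the 10 arrangements of 2 against 3 libraries allow. The plot of library measures shows d4 ENR replicate 1 farthest from the WENR libraries and replicate 3 nearest to them in covered length and pileup.

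**Figure D1:**
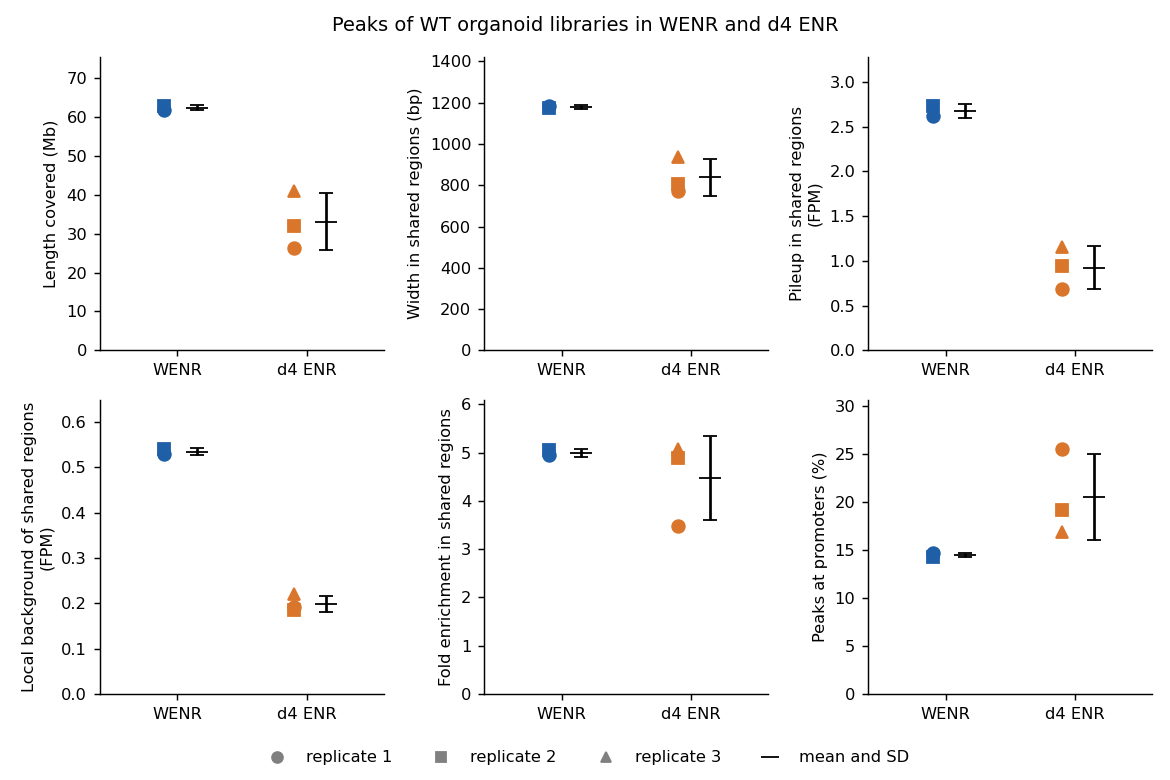
Each point is 1 WT library, WENR or d4 ENR, on linear axes from 0 with the unit given on each, and bars beside the points give the mean and SD of the medium. Covered length, pileup in shared regions and width did not overlap between the media, with 61.8 and 62.8 Mb covered in WENR against 26.2 to 41.0 Mb in d4 ENR.

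The fold enrichment of a peak over the local background of its own library did not separate the media. Its median over the shared regions was 4.94 and 5.06 in WENR and 3.48, 4.89 and 5.07 in d4 ENR (exact permutation test, 2-sided, p = 0.6). The local background itself, taken as pileup over fold enrichment, was 0.528 and 0.539 FPM in WENR and 0.191, 0.185 and 0.220 in d4 ENR, 2.69-fold lower. The mean fragment length in the file headers moved with the medium too, at 250 and 246 bp in WENR and 200, 156 and 172 bp in d4 ENR, and pileup and width both scale with it. With pileup scaled also for fragment length, a choice made after seeing the data, the median region was 1.92-fold lower in d4 ENR in place of 2.72-fold. Fewer accessible cells of a type and less signal per cell cannot be told apart in bulk samples, nor can either be told apart from the fragment length.

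Loss of peaks was more frequent outside promoters. Of all regions, those closed made up 6.12% in promoters (from 1 kb before a transcription start to 100 bp after it), 11.8% in exons, 16.3% in introns and 16.2% in intergenic sequence. Opened regions made up 0.240%, 0.272%, 0.596% and 0.968% of the same classes. Promoters held 14.7% and 14.3% of the peaks of a list in WENR and 25.5%, 19.1% and 16.9% in d4 ENR, and introns 46.6% and 46.7% against 37.9%, 42.9% and 44.6% (exact permutation tests, 2-sided, p = 0.2 for both, without overlap). The shares in exons (p = 0.8) and intergenic sequence (p = 0.4, both in the same exact test) overlapped between the media. The promoter share rose by 6.01 percentage points between the group means, by 2.23 with lists of equal length, by 3.51 without d4 ENR replicate 1 and by 13.5 with peaks of a −log10 q of at least 5. In regions shared by all 5 libraries the pileup did not follow this order, with a median log2 change of −1.46 in promoters, −1.51 in exons, −1.44 in introns and −1.36 in intergenic sequence.

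Height in WENR went with closing. Among the regions with a peak in both WENR libraries, 51.0% of the weakest quartile by mean WENR pileup closed, then 20.6%, 5.49% and 0.650% in the following quartiles. Within promoters these shares were 51.9%, 12.6%, 1.51% and 0.0583%, and outside promoters 50.9%, 21.2%, 6.08% and 0.983%. In the weakest quartile promoters and distal regions closed in like shares, while in each stronger quartile their share was lower. Width gave the same order, with 47.8% closed among regions under 500 bp in WENR, 20.5% from 500 to 1000 bp, 7.0% from 1000 to 2000 bp, 3.33% from 2000 to 3000 bp and 2.26% above. These shares are descriptions over regions, and the pileup that sorts the regions also decides how far each lies above the threshold of the caller.

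**Figure D2:**
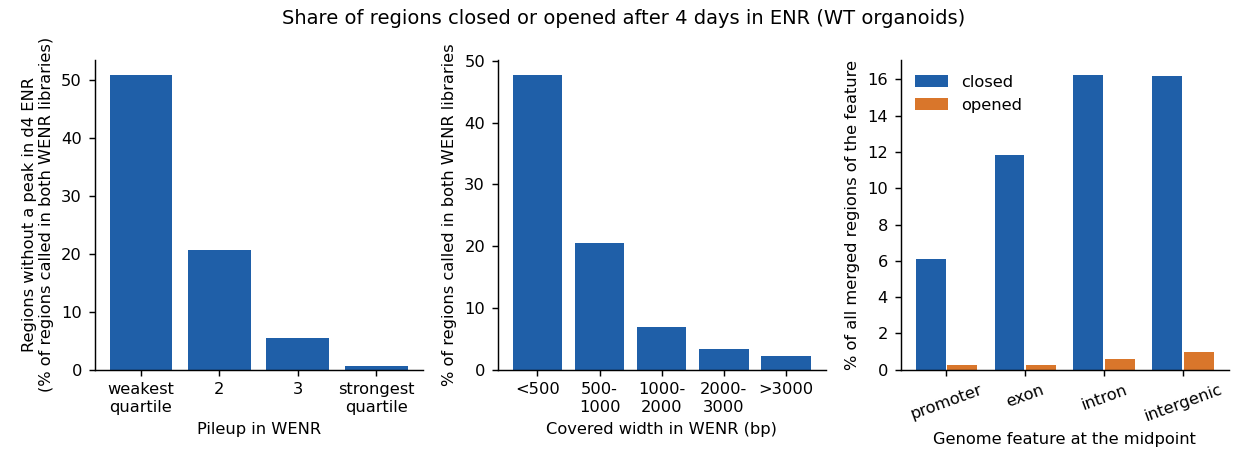
The bars give the percent of regions with a peak in both WENR libraries that had no peak in any d4 ENR library, by quartile of mean WENR pileup by class of width, and, at the right, the percent of all merged regions of each genome feature that closed or opened, on axes from 0. The share was 51.0% in the weakest quartile and 0.650% in the strongest.

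Closed and opened regions differed in more than direction. A closed region had a median width of 619 bp, a GC content of 46.0%, 4.77 CpG in the middle 300 bp and a distance of 25.3 kb to the nearest transcription start, and its median rank in the WENR lists was percentile 22. Opened regions were of like width (630 bp), and their median rank in the d4 ENR lists was percentile 30.2. They held 3.03 CpG, lay 35.4 kb from a start and were intergenic in 48.4% of cases against 35.8% of the closed. More than 50% of the bases were masked as repeats in 78 opened regions (15.9%), compared with 5.59% of closed and 2.60% of shared regions. Shared regions were wider (1281 bp), richer in CpG (12.2), nearer to a start (8.63 kb) and in promoters in 24.7% of cases. Without the regions masked over 50%, again chosen after seeing the data, 10504 closed and 414 opened regions were counted.

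The opened regions were also clustered. Chromosome 1 held 71 of them, 1.31% of its regions, and 38 of these lay among the 120 regions between 85 and 86 Mb, where the *Sp140* gene family has near-identical copies. The next densest stretches were chromosome 4 from 147 to 148 Mb, around *Zfp600* and *Zfp988*, with 10 of 69 regions opened, and chromosome 8 from 20 to 21 Mb with 5 of 51. Reads from near-identical copies cannot be assigned to one of them with certainty, so these calls are uncertain. Closed regions showed no such stretch, with at most 21 in any 1 Mb and a share between 13.1% and 18% on every chromosome but Y, which held 8 regions and none closed.

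The counts rest on the lists that were compared. Without d4 ENR replicate 1, which has the shortest list, 11412 regions were closed and 2354 opened. With all lists shortened to the 33433 peaks of that library, 2896 regions were closed and 1545 opened, so closed regions then outnumbered opened ones 1.87-fold in place of 22.6-fold. With only peaks of a −log10 q of at least 5, they did so 303-fold, at 15776 closed and 52 opened regions.

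The strongest closed regions lay in or beside genes. The highest was in an intron of *Vmp1*, a gene of autophagy, at chr11:86590234-86591390 with 6.65 and 6.26 FPM in WENR. Next to the regions already shown came introns of *Cipc*, which encodes an inhibitor of the circadian factor CLOCK, with 5.26 and 5.16 FPM, and of *Cnn2*, which encodes the actin-binding protein calponin 2, with 5.16 and 5.25. Further regions lay in an intron of *Atp1b1*, a subunit of the sodium pump, with 4.77 and 5.04 FPM, and in an exon of *Pnkd*, with 4.40 and 5.33. None of the 8 strongest closed regions had a second exact copy of its middle 50 bp in the genome, but near-identical copies were not counted. The share of bases masked as repeats was at most 35.35%, in the region of *Vmp1*.

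The strongest opened regions were narrower or repetitive. The highest, 230 bp wide and nearest to *Myl12b* at chr17:70963666-70963895, had 12.3, 13.3 and 12.4 FPM in d4 ENR. Its middle 50 bp had no second exact copy in the genome, but near-identical copies were not counted. Whether reads from such copies add to its pileup was not tested, so its values are uncertain. A region nearest to *Chrm3* followed with 4.66, 4.82 and 4.45 FPM, and one nearest to *Rnf219* had 2.80, 3.11 and 2.46. The middle 50 bp of these last regions have 4 and 6 exact copies in the genome. The opened regions in *Sfi1*, a gene for a centrosomal protein, had 4.09, 3.50 and 3.82 FPM in an exon and 3.70, 2.94 and 3.30 in an intron, where 52.0% of the bases were masked as repeats. Near *Gm10720* and *Tcp10c*, 97.6% and 97.7% of the region was masked. The region at chr4:118547659-118548708, 4.46 kb from the start of *Tmem125*, which encodes a membrane protein, had 2.59, 2.29 and 2.22 FPM in d4 ENR. It was wide, and its middle 50 bp had no second exact copy.

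Binding motifs separated closed from opened regions. Motifs were searched on both strands in the middle 300 bp of the 66526 regions outside promoters, as TGACTCA for AP-1, ACATTCC or GCATTCC for TEAD, CAAAGTCCA or CAAAGTTCA for HNF4, GCAATAAA or GCCATAAA for CDX and CTTTGAT for TCF/LEF. The AP-1 match was present in 23.3% of closed regions (95% Wilson interval 22.5 to 24.1%), 14.6% of shared regions (14.1 to 15.1%) and 9.17% of opened regions (6.88 to 12.1%), compared with 16.4% of all regions. TEAD matches had the same order, at 13.5% of closed (12.9 to 14.2%), 9.21% of shared (8.83 to 9.6%) and 6.61% of opened regions (4.70 to 9.23%), with 10.3% in all. The last 2 intervals overlap, and the order of opened and shared regions turned for TEAD with peaks of a −log10 q of at least 5. HNF4 matches had the reverse order, at 1.2% of closed (1.01 to 1.42%), 2.50% of shared (2.30 to 2.72%) and 5.54% of opened regions (3.81 to 8.0%), with 2.35% in all. These intervals cover counting error over regions only, and a match is a short string that does not show binding.

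**Figure D3:**
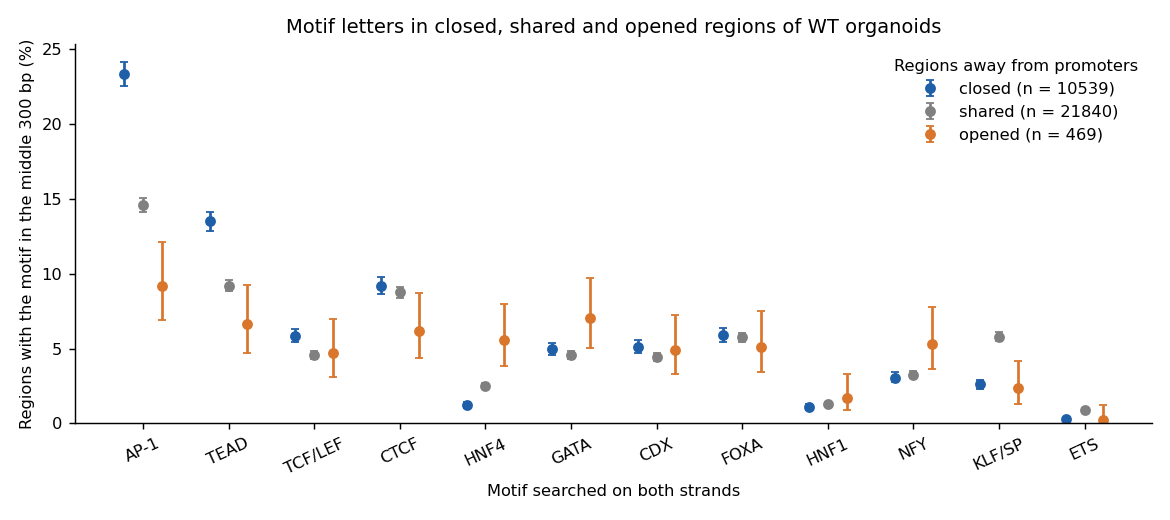
Points give the percent of distal closed, shared and opened regions with a match to each of 12 motifs in the middle 300 bp, with 95% Wilson intervals. AP-1 and TEAD matches were most frequent in closed regions (23.3% and 13.5%), and HNF4 matches in opened regions (5.54%).

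Because closed regions were weak in WENR, the motifs were set against closing within each quartile of WENR pileup. Distal regions with an AP-1 match closed in 64.7%, 34.0%, 9.81% and 2.06% of cases from the weakest to the strongest quartile, and those without in 48.5%, 18.1%, 5.18% and 0.787%. For TEAD the shares were 60.4%, 28.1%, 9.05% and 1.29% with a match and 49.8%, 20.4%, 5.72% and 0.951% without. Regions with an HNF4 match closed less, in 32.5%, 12.7%, 3.26% and 0.585% of cases against 51.3%, 21.4%, 6.14% and 0.990%. The order of the groups with and without these matches was the same in all 4 quartiles. Only 246, 283, 276 and 171 regions held an HNF4 match, so for HNF4 the order in the strongest quartile rests on very few closed regions.

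Among the remaining motifs, CDX, TCF/LEF and FOXA varied less between the classes, while KLF/SP and ETS set shared regions apart from the others. CDX matches were in 5.10% of closed, 4.46% of shared and 4.90% of opened regions, and TCF/LEF matches in 5.84%, 4.58% and 4.69%, with 4.78% and 5.07% in all regions. FOXA (TGTTTAC) was found in 5.88%, 5.74% and 5.12%, with 6.03% in all, HNF1 (GTTAATNAT) in 1.06%, 1.27% and 1.71%, with 1.22% in all, and CTCF (AGNNGGCGC or AGNNGGCAC) in 9.20%, 8.76% and 6.18%, with 8.96% in all. Matches to the string AGATAAG of the GATA factors were highest in opened regions, at 7.04% against 4.83% of all regions. Those to the NFY string CCAATCA were too, at 5.33% against 3.34%. The GC-rich strings of KLF/SP (GGGCGGGG) and ETS (CCGGAAGT) were most frequent in shared regions, at 5.80% and 0.865%. They were in 2.60% and 0.266% of closed regions, 2.35% and 0.213% of opened regions and 3.57% and 0.553% of all. The AHR:ARNT string TNGCGTG was in 4.44% of shared, 3.03% of closed and 3.41% of opened regions, with 3.44% in all, and GRHL (AACCGGTT) in 0.156%, 0.114% and none of 469, which allows a share of up to 0.812% by the Wilson interval, with 0.143% in all. A region can hold several motifs, and each motif was counted on its own.

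The same direction was seen in whole peak lists for HNF4 and TEAD. HNF4 matches were in 2.15% and 2.05% of the distal peaks in WENR and in 3.02%, 3.38% and 3.21% in d4 ENR, and TEAD matches in 10.6% and 11.1% against 9.50%, 10.2% and 9.84%. Neither overlapped between the media, which was so for 12 of the 14 motifs (exact permutation test, 2-sided, p = 0.2 each, adjusted over 14 motifs 0.233). For AP-1 the lists overlapped, at 17.8% and 18.5% in WENR and 15.9%, 18% and 16.4% in d4 ENR (the same exact test, p = 0.4, adjusted p = 0.431).

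Within the 29013 shared regions almost every site was lower in d4 ENR in FPM. By limma with Benjamini-Hochberg adjustment over all of them, 26216 (90.4%) passed an adjusted p of 0.05 as lower and 58 (0.2%) as higher, with a median log2 change of −1.44. With fold enrichment in place of pileup, 1005 passed as lower and 446 as higher and the median was −0.09. To describe which regions changed more than others, each library was centred on its median region. On this relative scale 6256 regions (21.6%) were higher and 2889 (9.96%) lower in d4 ENR. The number moved with single libraries, to 3393 in all without WENR replicate 2, 4369 without WENR replicate 1, 5710 without d4 ENR replicate 2 and 13093 without d4 ENR replicate 1, and the higher regions were the majority in each of these.

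For the HNF4, AP-1 and TEAD motifs, the relatively higher and lower regions were ordered as the opened and closed ones. Only regions with a peak in every WT library were fitted. A region weak in WENR thus entered only if it still passed the caller's threshold in d4 ENR. Such a selection can favour relative rises among weak and narrow regions, and its part in the values below was not tested. An HNF4 match was in 4.24% of the relatively higher and 0.718% of the relatively lower distal regions, and an AP-1 match in 11.5% and 21%. TEAD matches were in 9.11% and 12.3%. The relatively lower regions were wider, at a median of 1437 bp against 1060.5 bp for the merged region. Of shared promoters, 11.0% were relatively higher and 5.34% relatively lower, and of shared intergenic regions 30.9% and 12.3%. Peaks in shared promoters narrowed 1.28-fold and those in shared introns 1.49-fold between the group means.

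The largest relative rises among shared regions were again mostly at repeats or copied genes, such as the *Sp140* cluster and *Duxf3*. Of the 10 largest, 2 lay elsewhere in sequence whose middle occurs once in the genome. The region chr5:45925937-45926665, 68.7 kb from *Lcorl*, had a pileup of 0.401 and 0.400 FPM in WENR and 0.667, 1.13 and 1.57 in d4 ENR, a relative log2 change of 2.96 ± 0.19 (SE, limma adjusted p = 0.000206). The region chr7:30803921-30804837, 16.5 kb from *Krtdap*, had 0.521 and 0.464 against 0.679, 1.35 and 1.88 FPM and a relative log2 change of 2.85 ± 0.22. In both, every d4 ENR library was above every WENR library even without centring.

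The 10 largest relative falls were in regions whose middle 50 bp occurs once in the genome, with near-identical copies not counted. The region chr4:62653427-62655052 in an intron of *Rgs3*, a regulator of G-protein signalling, had 6.81 and 7.91 FPM in WENR and 0.385, 0.775 and 0.911 in d4 ENR, a relative log2 change of −1.94 ± 0.18. It holds an AP-1 match. So does chr10:99046903-99048553, 59.3 kb from *Poc1b*, with 4.86 and 5.48 against 0.423, 0.386 and 0.350 FPM. Regions 206.3 kb from *Kirrel3* (4.91 and 5.69 against 0.325, 0.435 and 0.550) and 276 kb from *Nphp4* (4.96 and 5.75 against 0.498, 0.396 and 0.465) fell as far. Among the 10 largest falls, those near *Poc1b*, *Nphp4*, *Ddr1* and *Lmo4* and in *Stk24* and *Atp8b1* did not pass with fold enrichment in place of pileup. Their limma adjusted p was 0.236, 0.0550, 0.360, 0.127, 0.202 and 0.142, and near *Ddr1* the change turned to 0.17. The falls in *Rgs3* and *Ptprg* and near *Kirrel3* and *Spdye4c* passed.

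The 10 widest regions were chosen by their width in WENR, so their narrowing in d4 ENR is a description, to be read beside the 1.41-fold of all shared regions. The widest, 34.1 kb from *Tubd1* on chromosome 11, was covered over 7031 and 7006 bp in WENR and 4745, 4329 and 5319 bp in d4 ENR. At *Zfp36l1*, a gene for an RNA-binding protein of the tristetraprolin family, coverage went from 7403 and 6421 bp to 2346, 2743 and 3048 bp. At *Adm*, which encodes the peptide adrenomedullin, it went from 5869 and 6027 bp to 1400, 1674 and 1823 bp. Near *Frmd8* and *Fam3b* and in *Dcbld2*, d4 ENR replicate 1 had no peak left in the region.

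For genes, the peak signal was the sum over peaks of pileup in FPM times the kilobases of peak within the gene and 5 kb on each side. Of 21884 protein-coding genes, 16093 had a mean signal of at least 0.1 and were tested on log2(signal + 0.1). Adding 0.1 understates changes in FPM of genes with little signal. On this scale 15462 (96.1%) were lower in d4 ENR (limma, Benjamini-Hochberg) and 46 higher, and the median gene changed by −1.91. Gene changes are therefore given relative to the median gene of each library, and a gene called relatively higher can still have less signal in d4 ENR. For a gene with little signal, an understated fall in FPM can become a relative rise after centring. Relatively higher genes numbered 436 with a pseudocount of 0.02 and 2456 with 0.5. Relative to the median gene, 638 genes (3.96%) were higher and 1136 (7.06%) lower, and 4909 had an unadjusted p under 0.05. These calls depend on single libraries: 8 genes passed without WENR replicate 1, and none in limma without WENR replicate 2 or without d4 ENR replicate 2, with 2091 and 3812 genes at an unadjusted p under 0.05, while 4172 passed without d4 ENR replicate 1 and 2433 without replicate 3. No gene of the lists described next passed the adjusted threshold without WENR replicate 1, WENR replicate 2 or d4 ENR replicate 2, so for each list the range of its median over all 14 alternative settings is given.

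Genes of the fetal-like repair program had a median below that of all genes, the lowest of the 14 lists except with 20 kb on each side of the gene and with covered bases. Of 17 tested, 10 were relatively lower and none higher, with a median relative log2 change of −0.94 (range over the settings −1.22 to −0.51), against −0.01 over all genes. *Msln*, which encodes the surface protein mesothelin, had a signal of 6.47 and 9.28 in WENR and 0, 0 and 0.096 in d4 ENR, a relative log2 change of −4.08 ± 0.29 (SE, limma adjusted p = 0.00610), and its promoter lost its peak. *Ly6a*, the gene of the regenerative marker Sca-1, went from 21.7 and 25.1 to 2.12, 2.11 and 3.74 (−1.24 ± 0.15, limma adjusted p = 0.00905), though its covered bases, in place of signal, gave a relative change of 0.00. *Anxa3*, an annexin gene, went from 34.1 and 41.0 to 2.19, 3.70 and 6.44 (−1.39 ± 0.22) with 5 of its 13 regions closed.

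Further members of this list moved alike. *Il33*, the gene of an alarmin cytokine, had 9.81 and 9.90 in WENR and 0.606, 0.914 and 1.02 in d4 ENR. The genes of the epithelial growth factors *Areg* and *Ereg* had 12.2 and 9.57 against 0.729, 1.2 and 2.23, and 18.4 and 16.4 against 1.39, 2.37 and 3.90. *Anxa8*, *Ly6d*, *Krt7* and *S100a6* also fell, by 1.91, 1.90, 1.41 and 0.89 on the relative log2 scale. The relative changes of *Clu* (−0.56), *Plaur* (−0.45) and *Anxa1* (−0.21) did not pass, and *Spp1* had no peak in any library. The count of lower genes was 12 without d4 ENR replicate 1 and 12 without replicate 3, and 0 without any other library.

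YAP/TEAD target genes followed the same direction. Of 23 tested, 10 were relatively lower and none higher, with a median of −0.82 (−0.89 to −0.52 over the settings). *Nuak2*, a kinase gene, had 20.5 and 21.3 in WENR and 1.21, 2.09 and 2.78 in d4 ENR, a relative log2 change of −1.48 ± 0.15 (SE, limma adjusted p = 0.00724). *Ajuba*, a LIM protein gene, went from 20.3 and 23.8 to 2.00, 2.19 and 2.52 (−1.35 ± 0.15), *Ptpn14*, a phosphatase gene, from 22.1 and 29.5 to 2.11, 2.38 and 3.92 (−1.30 ± 0.15), and *Myof*, which encodes myoferlin, from 57.4 and 63.7 to 4.76, 7.50 and 10.4 (−1.16 ± 0.13). Among the common reporters of YAP, *Ccn1* had 7.52 and 8.97 against 0.931, 1.18 and 1.45 (−0.82 ± 0.14, limma adjusted p = 0.0211, and 0.28 by covered bases), *Ccn2* 8.69 and 10.2 against 1.5, 2.05 and 2.33 (−0.33, adjusted p = 0.139), and *Ankrd1* 0.306 and 0.560 with no peak in d4 ENR.

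Among the other members, *Tgfb2*, *Nt5e*, *Foxf2*, *Asap1* and *Crim1* fell on the relative scale, by 1.42, 1.36, 1.03, 0.84 and 0.50. The promoters of *Amotl1* and *Foxf2* had a peak in both WENR and in no d4 ENR library, though none of the 2 regions of *Foxf2* closed. *Lats2*, a kinase gene of the Hippo pathway, was near the median gene (−0.04), and *Axl* was at 0.24. The count of lower genes was 14 without d4 ENR replicate 1 and 12 without replicate 3, and 0 when another library was left out.

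Most Wnt target and stem cell genes, 19 of 23 tested, lay below the median gene. Of these 23, 7 passed as relatively lower and 1 as higher, with a median of −0.55 (−0.63 to −0.37). *Myc* had 28.2 and 31.2 in WENR and 3.03, 3.63 and 4.70 in d4 ENR (−1.06 ± 0.10 SE, limma adjusted p = 0.00724), *Ccnd1*, the cyclin D1 gene, 24.2 and 28.3 against 2.28, 3.42 and 4.19 (−1.1 ± 0.11), and *Cd44*, an adhesion receptor gene, 17.6 and 22.1 against 2.03, 3.02 and 3.61 (−0.87 ± 0.12). The Eph receptor genes *Ephb3* (−0.91) and *Ephb2* (−0.65) and *Lrig1* (−0.95) fell as well. *Slc12a2* had 20.5 and 20.2 against 1.14, 2.35 and 2.12 (−1.54 ± 0.20), a fall that turned to 6.03 with lists shortened to equal length, the cause of which was not tested.

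The defining stem cell gene did not follow. *Lgr5*, a receptor of R-spondin, had 8.94 and 12.1 in WENR and 2.58, 2.71 and 3.06 in d4 ENR, which is lower in FPM but 0.03 relative to the median gene, and none of its 4 regions closed. *Axin2* (−0.55, limma adjusted p = 0.0832), *Sox9* (−0.57, adjusted p = 0.0586) and *Ascl2* (−0.78, adjusted p = 0.128) did not pass. *Smoc2* was the exception, with 0.227 and 0.639 in WENR and 0.323, 0.638 and 1.19 in d4 ENR, a relative rise of 2.48 ± 0.42 (limma adjusted p = 0.0205) from a low signal that overlapped between the media in FPM (0.59, adjusted p = 0.341). *Olfm4* had no peak in any library. Without d4 ENR replicate 1 there were 10 lower genes, without replicate 3 there were 8, and without any other library none.

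Absorptive colonocyte genes were split. Of 24 tested, 4 were relatively higher and 1 lower, and 10 lay below the median gene. The list median was 0.24, which ranged from −0.10 to 0.36 over the settings, and it was −0.10 without d4 ENR replicate 3 and with the replicate block, and −0.037 with lists of equal length. *Slc26a3*, the chloride-bicarbonate exchanger of the colon surface, had 8.62 and 7.43 in WENR and 4.08, 6.75 and 11.1 in d4 ENR, a relative log2 change of 1.65 ± 0.20 (SE, limma adjusted p = 0.00938) with a change of −0.24 before centring (adjusted p = 0.563). *Aqp8*, a water channel gene, had 2.30 and 2.31 against 0.707, 1.13 and 1.97 (0.97 ± 0.22), and *Slc5a8*, a transporter of short-chain fatty acids, 1.1 and 1.31 against 0.474, 0.666 and 0.955 (1.14 ± 0.20, but −0.13 by covered bases). Both genes were lower before centring in every d4 ENR library than in every WENR library, without passing there (limma adjusted p = 0.0724 and 0.0945). *Ceacam1* was relatively lower, by 1.25, and *Car1* (−0.86, adjusted p = 0.135), *Car2* (−1.01, adjusted p = 0.155) and *Krt20* (0.88, adjusted p = 0.0784) did not pass in limma. The count of higher genes was 7 without d4 ENR replicate 1, 3 without replicate 3 and 0 without another library.

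**Figure D4:**
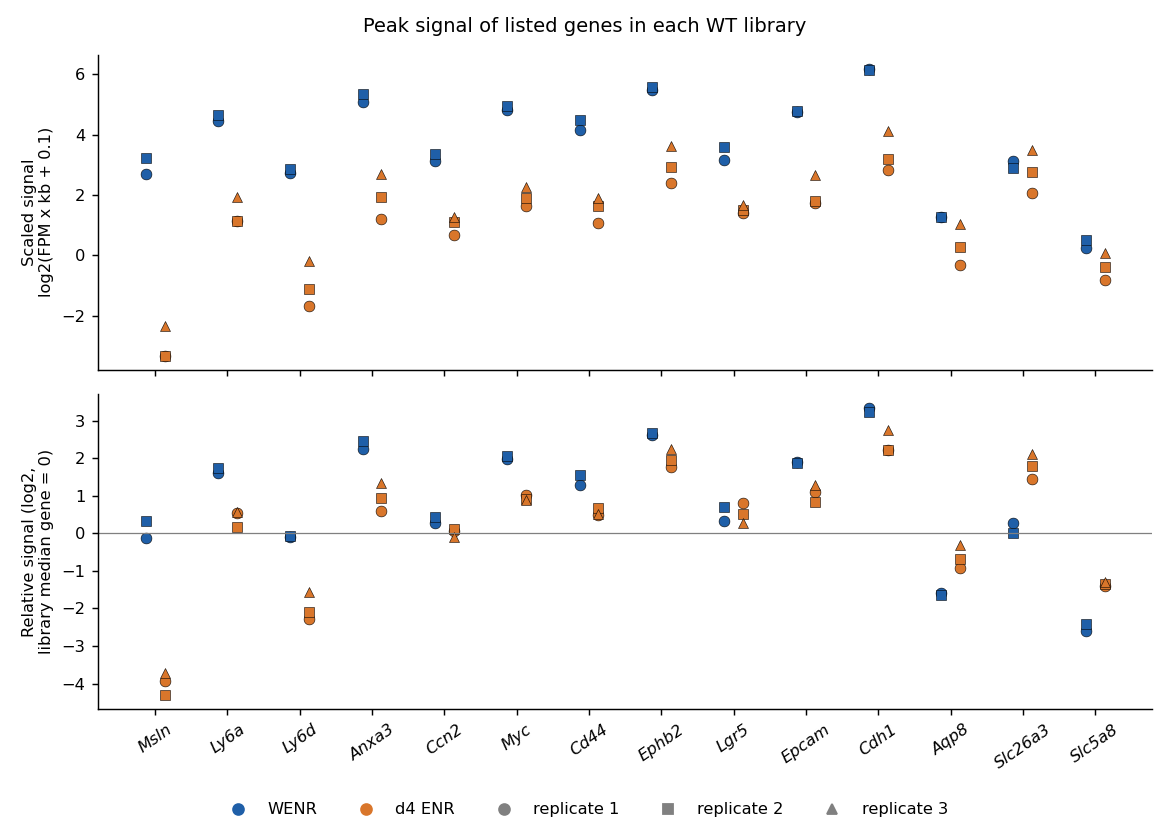
Each point is 1 WT library (blue for WENR, orange for d4 ENR, shapes for the replicates) and each column a gene, plotted as log2(signal + 0.1) in FPM times kb and again after subtracting the median gene of the library. *Msln*, *Ly6a* and *Anxa3* lie lower in d4 ENR on both scales, and *Slc26a3* lies higher after centring only (1.65).

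Genes of adhesion and of the basement membrane had 5 of 22 relatively lower and none higher, with a median of −0.41 (−0.47 to −0.27). *Itgb6*, an integrin gene of injured epithelium, had 38.5 and 45.1 in WENR and 4.11, 6.03 and 7.79 in d4 ENR (−0.93 ± 0.11 SE, limma adjusted p = 0.00828). The laminin genes *Lamc1* and *Lama5* fell by 0.84 and 0.76 and the collagen gene *Col4a2* by 0.75, whereas *Itgb1*, the common integrin beta chain, was at 0.03. Of the BMP and TGF-beta response genes, 5 of 21 were relatively lower and 1 higher, with a median of −0.35 (−0.46 to −0.14). *Tgfbr2*, the type 2 TGF-beta receptor gene, had 25.6 and 28.2 against 2.03, 2.35 and 4.46 (−1.34 ± 0.16, limma adjusted p = 0.00857), and *Pmepa1*, a feedback inhibitor of the pathway, 41.8 and 44.4 against 3.81, 5.70 and 6.48 (−1.13 ± 0.11). *Smad7*, *Smad6* and *Id1* fell by 0.58, 0.47 and 0.54, while *Tgfbi*, with 1.57 and 1.35 in WENR and 0.958, 0.697 and 1.61 in d4 ENR, was higher by 1.43 relative to the median gene only (−0.46 before centring, limma adjusted p = 0.301). An ALK5 inhibitor, present in WENR and absent in ENR, acts on this pathway, and its part in these values was not tested. In adhesion 8 and 7 genes were lower without d4 ENR replicates 1 and 3, in the BMP and TGF-beta list 7 and 5, and in neither list any without another library.

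The genes of AP-1 factors and of intestinal identity factors were described as lists of their own. None of 14 AP-1 factor genes passed (median −0.17, −0.36 to 0.12). *Fos* had 25.1 and 25.5 in WENR and 5.56, 8.02 and 10.3 in d4 ENR (0.20), *Jun* 36.6 and 36.7 against 7.35, 10.3 and 14.0 (0.06), and *Atf3* 77.6 and 74.5 against 8.59, 12.5 and 20.8 (−0.64, limma adjusted p = 0.0622). Of 25 transcription factor genes of intestinal identity, 5 were relatively lower and none higher (median −0.19, −0.41 to −0.06), among them *Klf5* (−0.69), *Foxa2* (−0.65), *Elf3* (−0.59) and *Gata6* (−0.48). *Hnf4a* had 35.6 and 34.4 against 4.64, 7.42 and 9.67 (−0.42, limma adjusted p = 0.0808), *Hnf4g* 13.8 and 13.3 against 2.29, 4.06 and 5.91 (0.09) and *Cdx2* 24.5 and 25.6 against 4.05, 5.70 and 8.97 (−0.17). The identity list had 9 lower genes without d4 ENR replicate 1, 8 without replicate 3 and 0 without another library, and the AP-1 list 3, 1 and 0.

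Housekeeping and cycle genes had medians near that of all genes. Of 24 ribosomal protein genes none passed (median 0.04, −0.04 to 0.10), and of 24 genes of DNA replication and the cell cycle *Rrm2*, a subunit of ribonucleotide reductase, was relatively lower (−0.90 ± 0.11 SE, limma adjusted p = 0.00995) and *Cdc6*, a replication licensing gene, relatively higher (0.55 ± 0.13, adjusted p = 0.0489, but −0.07 by covered bases and −0.24 in the gene body alone), with a median of 0.02 (−0.13 to 0.25). *Mki67*, the gene of the proliferation marker Ki-67, was at 0.07. All 24 genes of each of these lists kept a promoter peak in all 5 libraries. In the cycle list 2 genes were higher and 4 lower without d4 ENR replicate 1, and none passed without WENR replicate 1, WENR replicate 2 or d4 ENR replicate 2. In the ribosomal list 4 genes were lower without d4 ENR replicate 1, and none without any other single library.

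AHR pathway genes are of interest because AHR is the subject of the study. Of 9 tested, 2 were relatively lower (median −0.12, −0.43 to −0.06). *Cyp1b1*, a cytochrome gene induced by AHR, had 11.3 and 12.1 in WENR and 1.01, 1.21 and 1.52 in d4 ENR (−1.25 ± 0.13 SE, limma adjusted p = 0.00730). *Aldh3a1* had 0.960 and 1.30 in WENR and no peak in d4 ENR, and its promoter lost its peak. *Cyp1a1* (0.23), *Tiparp* (−0.12), *Ahr* (−0.10) and *Arnt* (−0.03) did not pass. Without d4 ENR replicate 1 or 3 the list again had 2 lower genes, and without another library none.

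**Figure D5:**
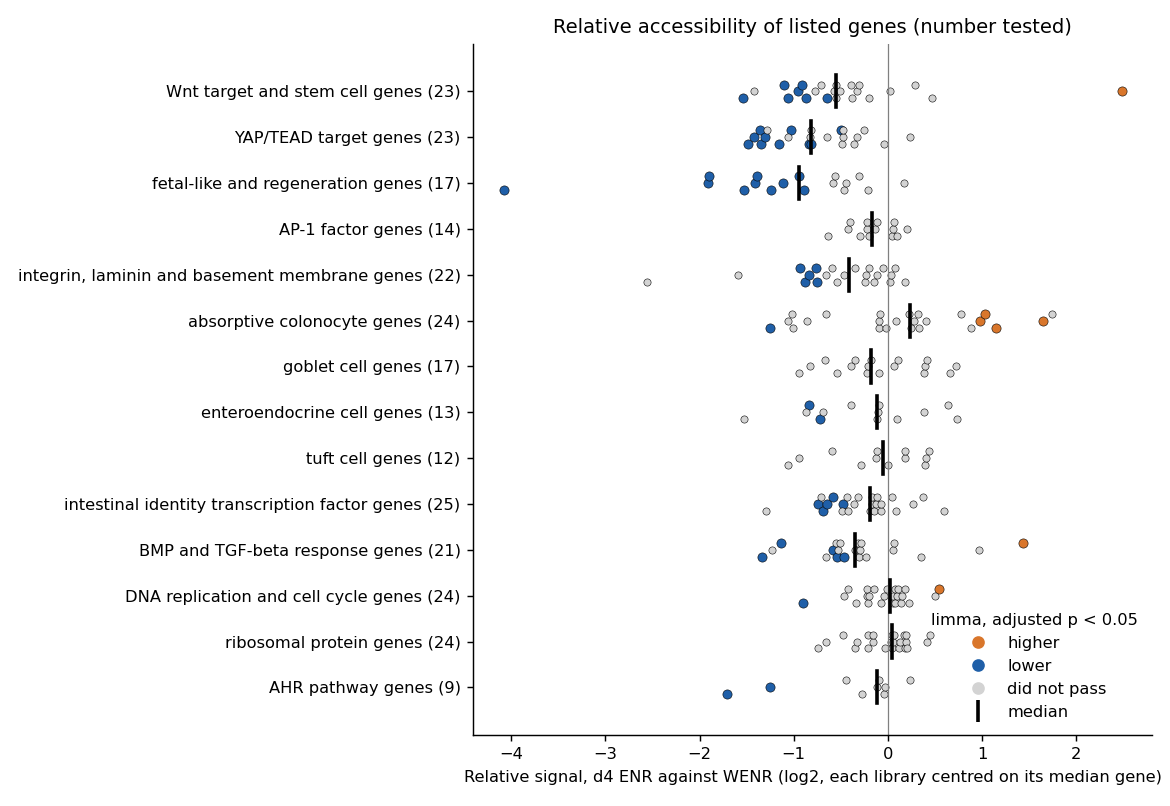
Each point is a tested gene of a list, plotted by its log2 change in d4 ENR against WENR relative to the median gene, with the median of each list marked. The medians of the fetal-like (−0.94), YAP/TEAD (−0.82) and Wnt and stem cell (−0.55) lists lie below that of all genes (−0.01), and that of the colonocyte list (0.24) above it.

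The 12 largest relative falls over all genes had little or no signal left in d4 ENR. *Gsdmc2* and *Gsdmc4*, gasdermin genes in a cluster of close copies, had 15 and 14.2 in WENR against 0, 0.101 and 0.146 in d4 ENR, and 15 and 11.4 against 0, 0.316 and 0.339, and the reads of such copies are uncertain. *Dkk2*, which encodes a secreted Wnt antagonist, had 2.94 and 3.86 in WENR and no peak in d4 ENR, and *Oas3*, an interferon-induced gene, 2.55 and 2.73 and no peak. *Ccl8*, a chemokine gene, went from 8.34 and 12.7 to 0.151, 0.417 and 0.368, a relative log2 change of −2.83 ± 0.28 (SE, limma adjusted p = 0.00724). *Tm4sf1*, a tetraspanin-like gene, went from 5.08 and 7.29 to 0, 0.252 and 0.175 (−2.97 ± 0.44), and *Igfbp7* from 2.93 and 4.01 to 0, 0.0838 and 0. *Slc10a1*, *Fxyd4*, *Palm3* and *Lsmem1* complete the 12 together with *Msln*, and their WENR signals were between 3.70 and 6.07. In all 12 genes the groups did not overlap, which the rule for naming them required.

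The largest relative rises had little signal. *Zfp600* (0 in WENR, and 1.31, 0.957 and 1.01 in d4 ENR), *Zfp988*, *AY761185*, *AW822073* and *Duxf3* belong to families of near-identical copies, so their values are uncertain. Single genes among the 12 were *Hs3st4*, a heparan sulfate sulfotransferase gene (0 in WENR, and 0.239, 0.961 and 1.40 in d4 ENR), *Ckmt2*, the sarcomeric mitochondrial creatine kinase gene (0.143 and 0 against 0.298, 1.15 and 1.78), *Lipn* (0.5, 0.551 and 0.660 in d4 ENR only), *Iyd*, which encodes iodotyrosine deiodinase (0.285, 0.317 and 0.440 in d4 ENR only), *Rimbp2* (0.0840, 0.626 and 0.609 in d4 ENR only) and *Nlrp1b*, an inflammasome sensor gene (0.120, 0.416 and 0.724 in d4 ENR only). *Cldn34d* completes them, with 0.504, 0.405 and 0.482. Each of these was held by 1 or 2 opened regions except *Duxf3*, and a gene with no peak in WENR is listed at 0, which gives no fold. Neither the 12 falls nor the 12 rises passed without WENR replicate 2 or d4 ENR replicate 2.

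At promoters, 629 genes (2.87%) lost their peak and 6 (0.0274%) gained one, while 11487 kept a peak in all 5 libraries and 8087 had none in any. A lost peak here means that no covered base was left in the promoter window in d4 ENR. A peak that narrowed out of the window while its region stayed called is therefore counted as lost. The losses of highest pileup lay in *Hsf3*, *Gadd45gip1*, *Zbtb18*, *Ccr10*, *Ankrd55*, *Mical1*, *Arhgdig* and *Tk1*. *Ankrd55* stood out among them, with a gene signal of 10.2 and 12.6 in WENR and 0.364, 0.307 and 0.743 in d4 ENR (−2.50 ± 0.24 SE relative, limma adjusted p = 0.00724) and 4 of 9 regions closed. At *Zbtb18* the gene signal was 19.9 and 20.8 against 3.10, 3.97 and 5.73, a relative change of −0.38 (adjusted p = 0.0522), and peaks covered 158 and 179 bp of the promoter window in WENR and 0 in d4 ENR. *Gadd45gip1*, *Zbtb18*, *Ccr10*, *Mical1* and *Tk1* held no closed region. Each still had peaks in the gene or its 5 kb flanks in every d4 ENR library. The gained promoters, leaving out predicted genes, were those of *Aqp1*, a water channel gene, with 226, 405 and 548 bp covered in d4 ENR, *Iyd* with 232, 272 and 333 bp, *Cyp4f14*, a cytochrome gene, with 360, 340 and 617 bp, and *Prss30*, a serine protease gene, with 345, 387 and 560 bp, and none in WENR. Without d4 ENR replicate 1 the gained promoters numbered 38, and 10 without replicate 2.

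Closed regions were spread over 5035 genes (23.0% of protein-coding genes), with 157 genes holding 5 or more, and opened regions over 210 (0.960%). *Fgfr2* held the most by count, 19 of 169 regions, over an annotated span of 2961 kb. Its share was below the 14.6% closed over all regions, and so long a span can include regions of other genes. *Pde4d*, a phosphodiesterase gene, held 12 of 69 regions closed over 1504 kb, *Ctnna1*, the alpha-catenin gene, 11 of 18 over 136 kb, and *Sema5a*, a semaphorin gene, 10 of 20 over 452 kb. *Ctnna1* thus lost the larger share of its regions, although its gene signal went from 27.4 and 29.3 to 4.73, 5.55 and 7.62, a relative change of −0.36 (limma adjusted p = 0.0577). *Sema5a* (−1.1 ± 0.10 SE, limma adjusted p = 0.00724), *Sh3kbp1* (−1.31) and *Palld* (−0.77) also fell as whole genes, and *Psd3* (−0.53), *Ptprg* (−1.06), *Med13l* (−0.60) and *Trio* (−0.56) did not pass.

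The AHR KO libraries of the series allow the size of the medium effect to be compared. The log2 ratio of covered length between d4 ENR and WENR was −0.94 in WT and −0.41 in AHR KO organoids (difference −0.53, exact permutation of genotypes within media, 2-sided, p = 0.18), and that of the median pileup in regions shared by all 10 libraries −1.57 and −0.88 (difference −0.69, p = 0.18 in the same exact test). Median peak width gave −0.45 and −0.13 (p = 0.1), peak number −0.49 and −0.27 (p = 0.5) and the promoter share 6.01 and 2.45 percentage points (p = 0.38), also by exact permutation. None of the 5 differences between genotypes passed, and 100 arrangements allow a p of 0.02.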

How the data were processed

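ATAC-seq peak lists of the 5 WT libraries were used, with the AHR KO libraries for 1 comparison of genotypes. The authors aligned reads to GRCm38 with BWA (nf-core/atacseq), and MACS 2.2.7.1 was run by them on 1 library at a time for broad peaks, with q of 0.1 for broad and 0.05 for narrow stretches, a local background over 10000 bp and no control or pooling. The deposited values are the pileup of each peak, a coverage signal in fragments, the fold enrichment over local background, a ratio, and −log10 of p and q. The headers give between 30.4 and 47.9 M fragments per WT library, and pileup was scaled here to 1000000 of them (FPM). The headers give no reads per region, so the depth behind a single value is unknown, and the study's count test was not repeated. No pair of lists had the same number of peaks, and each library was counted as 1 sample.

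Peaks were merged at an overlap of 1 bp. Features and genes came from GENCODE M21, and sequence from GRCm38.p6. Regions shared by all 5 libraries, and genes with 5 kb on each side and a mean signal of at least 0.1, were tested by limma 3.58.1 in R 4.3.3 on log2 values of the 5 libraries with no covariate, pseudocount 0.1 for genes, with Benjamini-Hochberg adjustment at 0.05, both in FPM and relative to the median of the library. Library measures were compared by exact permutation tests that ran through every arrangement of the libraries. The Wilson intervals and the adjustment over motifs came from scipy 1.17.1. Python 3.11.15, numpy 2.4.6, pandas 2.3.3 and matplotlib 3.10.9 were used, and the scripts were tested on simulated data. The members, gene lists and motifs were chosen with earlier results of these data known.

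Named were the 12 largest rises and 12 largest falls among genes past the threshold without overlap of the groups, leaving out predicted genes, up to 4 genes of lowest p in each list and any that lost or gained all peaks, the 8 promoters of highest pileup lost and gained, the 8 strongest closed and opened regions, the 10 genes with most closed regions, the 10 widest regions and the 10 largest rises and falls of shared regions. Other members of the lists were named after their values were seen, to show the members that did not pass, and some genes are not reported here. Alternatives were limma array weights, a replicate block, each library left out, pseudocounts of 0.02 and 0.5, no filter, the gene body or 20 kb on each side, covered bases, fold enrichment in place of pileup, peaks with −log10 q of at least 5, lists of equal length, autosomes only and a cover of at least 50%. Scaling for fragment length, leaving out masked regions, and the alternatives of promoters, motifs by region class and lists were chosen after seeing the data.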

Additional observations from a re-analysis of the deposited data

How the results depend on the processing

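The 7 library measures kept their direction under every alternative run, though the promoter share rose by 2.23 to 13.5 percentage points. With lists of equal length, the difference of d4 ENR minus WENR in percentage points reversed for the TCF/LEF share of peaks (0.0203), the CTCF share of peaks (0.0232) and the AHR:ARNT share of peaks (−0.320), closed and opened regions numbered 2896 and 1545, the gene promoters lost 220 and the gene promoters gained 53, and the relative change of *Slc12a2* turned to 6.03. With peaks of −log10 q of at least 5, CTCF reversed (0.130), opened regions numbered 52, scaled region calls 15576, relative region calls 3256 and gene promoters lost 1262, and the TEAD share of opened minus shared regions was 0.795. The CDX share of opened minus shared regions was −0.589 with equal lists and ran from −0.279 without d4 ENR replicate 3 to 1.095 without d4 ENR replicate 1. With a cover of at least 50%, 19354 regions closed and 327 opened. Fold enrichment in place of pileup gave 1451 scaled region calls and 0.170 near *Ddr1*, and scaling for fragment length, chosen after seeing the data, 16108. Array weights gave 19992 relative region and 8959 relative gene calls, though the weights had not converged, and the looser rule of 1 WENR and 2 d4 ENR libraries 16279 regions. Relative gene calls numbered 4310 with a pseudocount of 0.5 (43.0% lower) and 1166 with covered bases (82.4% lower), against 64.0% lower in the fit reported and 51.8% with array weights, and scaled gene calls numbered 5546 with covered bases. The relative change turned sign with covered bases for *Ccn1* (0.28), *Cdc6* (−0.069), *Id1* (0.17), *Ly6a* (0.0045), *Slc5a8* (−0.13) and *Trpm5* (−0.91), in the gene body for *Cdc6* (−0.24) and with a pseudocount of 0.5 for *Aldh3a1* (0.0042) and *Cdh5* (0.84). The causes were not tested. Leaving out 1 library gave 595 to 2354 opened and 11412 to 16411 closed regions, 3393 to 13093 relative region calls, 0 to 4172 relative gene calls and 7 to 38 gained promoters, with the highest number of opened regions and gained promoters without d4 ENR replicate 1. Over all alternatives and the genes named, 1383 values kept direction and call, 375 lost and 132 gained the call, and 10 reversed. With so few libraries no library measure can pass, and calls near the threshold of MACS depend on depth, which was higher in WENR.

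The libraries share replicate numbers, but the labels do not say that a number marks a shared animal or day. With the replicate block, 3213 genes and 11320 regions passed on the relative scale. Paired by replicates 1 and 2, covered length changed by −1.10 and the pileup in shared regions by −1.74 (log2), and the block reversed none of the library measures.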

Other observations

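Genes of the secretory lineages were tested relative to the median gene, where 3.96% of all genes passed as higher and 7.06% as lower (limma, Benjamini-Hochberg). None of 17 goblet cell genes passed, with a median relative log2 change of −0.18, which ranged from −0.31 to 0.065 over the alternatives, and 2 were higher and 3 lower without d4 ENR replicate 1. *Atoh1*, which encodes the factor that sets the secretory fate, had a signal of 4.49 and 5.13 in WENR and 1.18, 1.64 and 2.34 in d4 ENR (0.42, limma adjusted p = 0.0992). *Muc2*, the main mucin gene of the colon, had 0.614 and 0.563 against 0, 0.361 and 0.513.

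Of 13 enteroendocrine genes, *Nkx2-2* and *Isl1*, which encode transcription factors of that lineage, were relatively lower (−0.83 and −0.72, limma adjusted p = 0.0451 and 0.0404), and the median of the list was −0.12 (−0.99 to 0.25). Neither gene passed with the replicate block, or without WENR replicate 1, WENR replicate 2 or d4 ENR replicate 2, and 3 genes of the list were lower without d4 ENR replicate 1. *Nkx2-2* had 3.68 and 4.15 against 0.307, 0.540 and 0.746. None of 12 tuft cell genes passed, with a median of −0.057 (−1.17 to 0.36), while 1 was higher and 1 lower without d4 ENR replicate 1 and 1 lower without replicate 3. *Plcg2*, a phospholipase gene, was the lowest of them, at 4.08 and 4.36 against 0.364, 0.604 and 0.432 (−1.06, limma adjusted p = 0.0558). The promoters of *Trpm5*, the cation channel gene of tuft cells, and of *Dclk1* and *Ptgs1* carried peaks in both WENR lists and lacked them in all 3 d4 ENR lists, while the gene signal of *Trpm5* as a whole was at 0.18 relative to the median gene (adjusted p = 0.321).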
